A study of Mus musculus with 2 samples.

Results

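The genes described here are 29 genes of cholesterol synthesis and its sterol control, taken by gene symbol from the transcript tables of a long-read RNA-seq study of the mouse adrenal gland. They comprise enzymes from acetyl-CoA to cholesterol, the sterol sensors and transcription factors that control them, the proteases that release those factors, and carriers that move cholesterol between membranes. All 29 genes had at least 1 read in each library, among 16674 annotated genes with a read in either. The samples were 2 biological replicates of wild-type C57BL/6J adrenal tissue, called female in their descriptions though their sex field gives none, with no treatment, no recorded age and no comparison group. The labels do not say whether each library came from 1 animal or a pool. A long read covers a cDNA molecule from end to end, so 1 read shows which exons were joined.

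Cholesterol is built from acetyl-CoA through mevalonate, isoprenoids and squalene, whose ring closure gives lanosterol and then, after removal of methyl groups and shifts of double bonds, cholesterol. The transcription factors SREBP-1 and SREBP-2, made from Srebf1 and Srebf2, are held in the endoplasmic reticulum by Scap and the Insig proteins when sterols are plentiful, and are cut free by the site-1 and site-2 proteases when sterols fall. Steroid-making cells of the adrenal cortex use cholesterol as the substrate of every steroid hormone and take much of it from lipoproteins.

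SREBPs bind sterol regulatory elements, usually beside binding sites of NF-Y and Sp1, so the promoters of genes at both ends of this control loop are shown before the counts. They are those of Hmgcs1 (an SREBP target that opens the mevalonate branch), Insig1 (an anchor of the SREBPs whose gene is itself their target), Dhcr7 (the last reductase) and both starts of Srebf1 that the reads used. The sequences are from RefSeq on GRCm38.p6, read 5′ to 3′ on the strand of the gene and ending at the base before the RefSeq start, or earlier where a coding transcript already has an exon. Capitals mark letters of a sterol regulatory element core (TCACNCCAC), an NF-Y box (CCAAT, or ATTGG on the other strand) or an Sp1 box (GGGCGG, or CCGCCC on the other strand).
Hmgcs1, chr13:119690101-119690350 (+): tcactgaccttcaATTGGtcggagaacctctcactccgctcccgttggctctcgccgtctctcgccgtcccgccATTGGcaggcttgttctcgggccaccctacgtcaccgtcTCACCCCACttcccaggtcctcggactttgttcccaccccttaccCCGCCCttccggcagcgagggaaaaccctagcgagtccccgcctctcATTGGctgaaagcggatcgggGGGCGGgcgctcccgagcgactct
Insig1, chr5:28071162-28071362 (+): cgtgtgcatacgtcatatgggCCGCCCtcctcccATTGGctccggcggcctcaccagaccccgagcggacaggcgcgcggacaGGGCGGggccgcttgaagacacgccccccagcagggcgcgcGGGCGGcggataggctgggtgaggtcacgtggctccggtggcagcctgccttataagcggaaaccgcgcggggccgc
Dhcr7, chr7:143829964-143830076 (+): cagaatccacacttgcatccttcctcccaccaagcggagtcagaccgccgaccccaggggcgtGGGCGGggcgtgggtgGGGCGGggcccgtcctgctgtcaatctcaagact
Srebf1 upstream start, chr11:60220628-60220877 (-): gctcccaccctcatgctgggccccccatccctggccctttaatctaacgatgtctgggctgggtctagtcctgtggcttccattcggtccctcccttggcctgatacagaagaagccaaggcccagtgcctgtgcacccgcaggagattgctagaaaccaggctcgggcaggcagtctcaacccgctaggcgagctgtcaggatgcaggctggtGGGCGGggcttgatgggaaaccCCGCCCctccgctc
Srebf1 downstream start, chr11:60210472-60210721 (-): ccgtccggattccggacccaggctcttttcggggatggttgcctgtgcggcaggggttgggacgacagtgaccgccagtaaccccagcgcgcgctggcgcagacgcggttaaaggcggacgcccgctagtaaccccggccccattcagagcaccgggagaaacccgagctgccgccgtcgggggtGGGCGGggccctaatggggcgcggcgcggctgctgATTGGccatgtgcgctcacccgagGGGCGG

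In Hmgcs1 the sterol regulatory element core began 137 bases before the start, between ATTGG boxes that began 176 and 45 bases before it. The Dhcr7 window stops short of its CCAAT boxes, because these lie inside an annotated exon, and 25 bases around each box are given instead.
Dhcr7 CCAAT, chr7:143830119-143830143 (+): actgccttcaCCAATcacaggacgc
Dhcr7 ATTGG, chr7:143830155-143830179 (+): tccacttccgATTGGtcgtctgtga

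The promoter table held 32 starts of 24 of the 29 genes, and Fdps, Fdft1, Sqle, Stard4 and Npc1 were not in it. The windows searched ran from 250 bases before to 50 bases after each start, on both strands. The letters TCACNCCAC were found in 1 of the 24 genes, Hmgcs1, against 1.44% of all 27025 genes in the table (1.24% of its 32851 windows). The E-box form TCACGTGA was found in none of the 24, against 1.12% of all genes. CCAAT was found in at least 1 window of 20 of the 24 genes, and in 41.1% of all genes. Mvk held 5 such boxes, Hmgcs1 and Nsdhl 4 each. GGGCGG was found in 21 of the 24 genes, against 38.2% of all genes. The core in Hmgcs1 overlapped no other box. No match says only that these letters are not in the window.

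**Figure D1:**
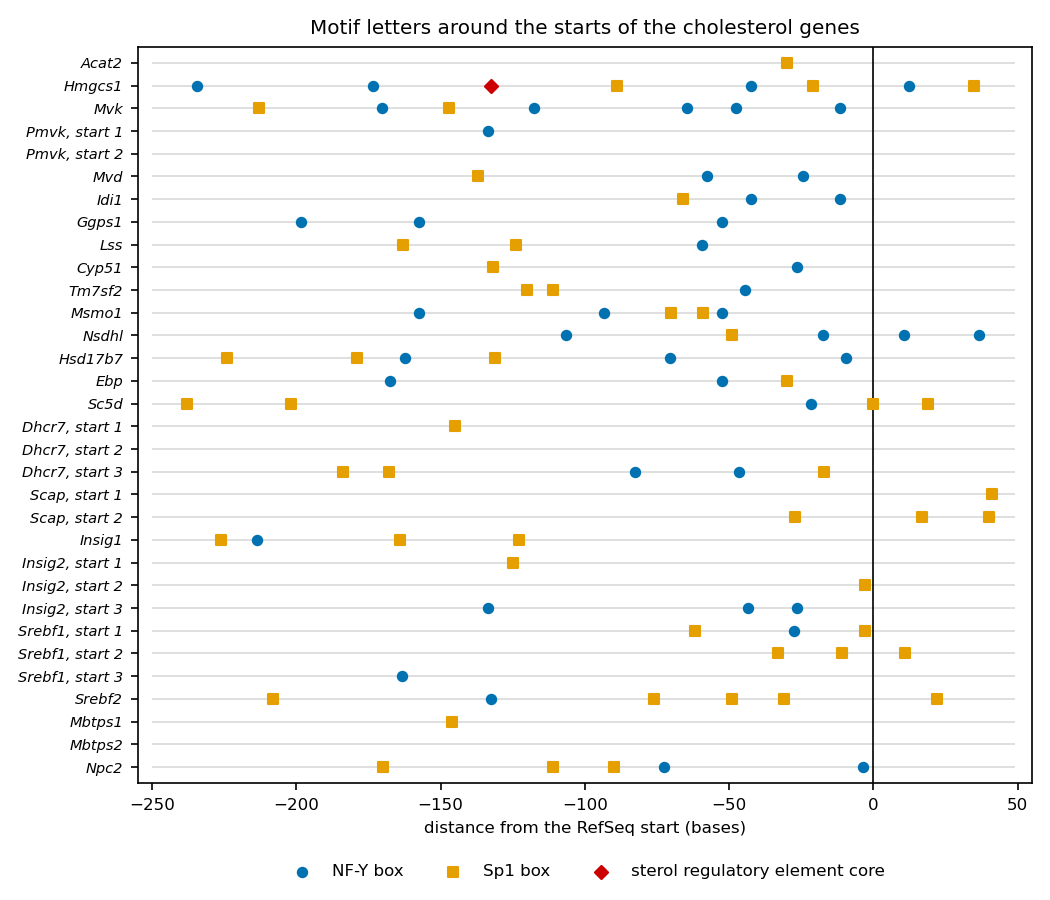
Positions of the motif letters (x axis, bases from the RefSeq start, with the start at 0) in each window of the 24 genes found in the promoter table (1 line per start). Circles are NF-Y boxes, squares Sp1 boxes and the diamond the sterol regulatory element core, which appears in Hmgcs1 only; for Srebf1, start 1 is the downstream start and start 2 the upstream start whose sequences are given.

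Replicate 1 held 810239 reads and replicate 2 held 587861. Levels are in CPM, which bring the reads of a gene to the same total for each library; a long read is counted once per molecule, so CPM was not divided by length. A gene with no read could still stand at up to 3 reads, which were worth 3.70 CPM in replicate 1 and 5.10 CPM in replicate 2. Fewer cells of a type and less RNA per cell cannot be told apart in such bulk tissue. Markers of the labelled tissue were present: 7 of 7 adrenal cortex genes had reads, with 7.75% and 9.10% of all reads, as had 6 of 6 chromaffin genes. Of the hepatocyte markers, Alb had no reads and the whole list had 2, both from replicate 1. The kidney list had 0 reads in both libraries and the skeletal muscle list 1 in all. Adipocyte markers had 176 and 22 reads in replicates 1 and 2, and replicate 1 was higher in 4 of 4 tested genes. Macrophage markers had 935 and 155 reads, and replicate 1 was higher in 3 of 5 and replicate 2 in the other 2, Adgre1 and Csf1r. With the length trend described below removed, 0 of 4 adipocyte genes and 1 of 5 macrophage genes were called.

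The cholesterol genes took 1319 reads in replicate 1, or 0.163% of the library, and 2662 in replicate 2, or 0.453%. Their summed level was 1628 CPM and 4528 CPM, a mean of 3078 ± 2051 CPM (SD, n = 2). In replicate 1 the highest were Npc2 at 358 CPM, Msmo1 at 259 CPM and Fdps at 176 CPM. In replicate 2 they were Dhcr7 at 1075 CPM, Hmgcs1 at 924 CPM and Srebf1 at 534 CPM, so the libraries had different leading genes. By mean the order ran from Dhcr7 (599.9 ± 672 CPM) and Hmgcs1 (509 ± 586 CPM) to Mvd (10.9 ± 1.44 CPM) and Tm7sf2 (6.34 ± 5.47 CPM). No neighbours in that order differed by more than the larger of their SDs.

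**Figure D2:**
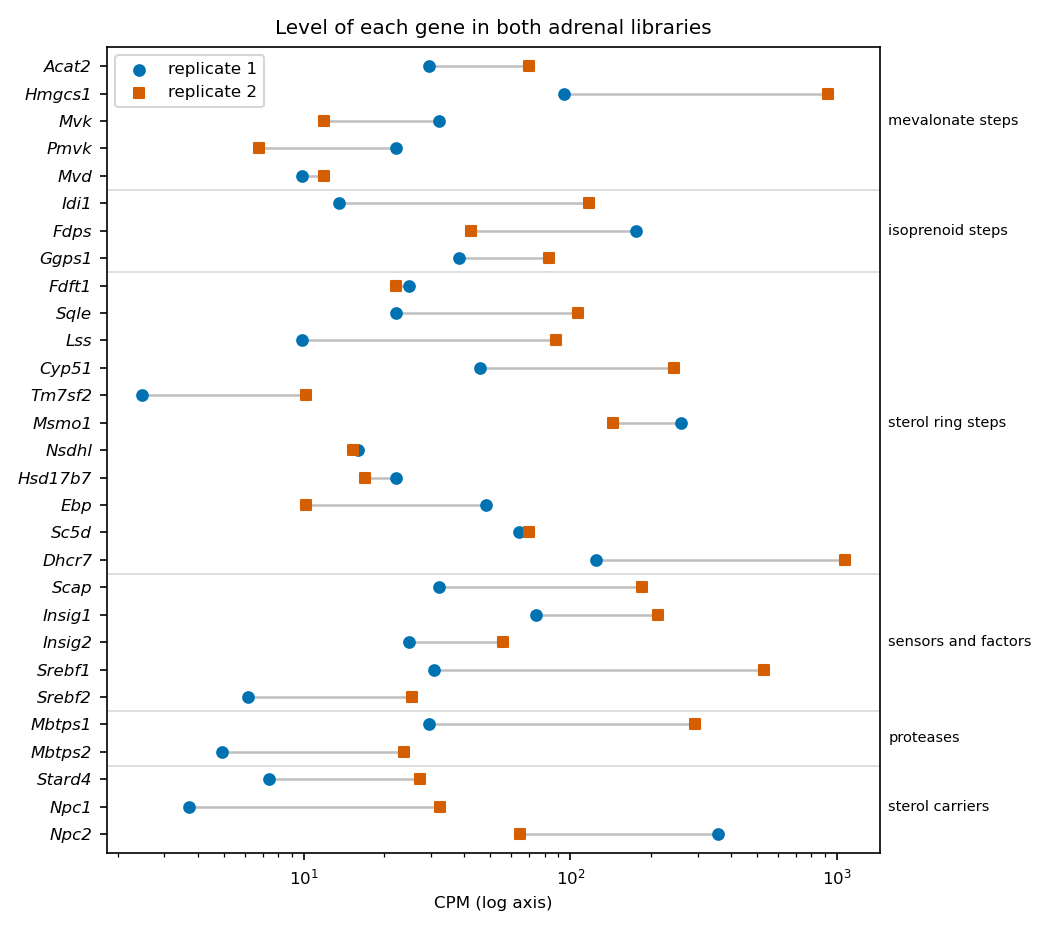
Level of each of the 29 genes (rows, grouped by role) in CPM (x axis, log scale), as a circle for replicate 1 and a square for replicate 2, with a line joining them. Srebf1, Dhcr7 and Hmgcs1 are far to the right in replicate 2, while Npc2, Fdps and Ebp are to the right in replicate 1.

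Replicate 2 was set against replicate 1 for each gene with at least 10 reads over both libraries. The test was an exact two-sided binomial test on TMM-scaled library sizes with Benjamini-Hochberg adjustment over all 9809 such genes. It compares these libraries and their reads, not conditions, and has no replicate check. Of the 29 genes 28 were tested, since Tm7sf2, the sterol 14-reductase, had 2 and 6 reads. At an adjusted p under 0.05, replicate 2 was higher for 12 and replicate 1 for 6, and 10 genes had no call. Over all genes tested, 66.2% were called, 30.6% as higher in replicate 2 and 35.6% as higher in replicate 1, so the 18 calls among 28 are near that background in number. The median log2 ratio was 0.90 for the cholesterol genes and -0.01 for all genes. Under edgeR's exact test with the common dispersion of the libraries, 0 genes of any kind were called, and 0 cholesterol genes and 252 of all genes had an unadjusted p under 0.05. That dispersion was estimated with both libraries taken as a single group, so it contains the difference under test. The 0 calls therefore cannot decide whether any gene differed.

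Transcript length moved with these calls. The 6 genes higher in replicate 1 had a median model length of 1702 nt (1194 to 3299 nt), and the 12 higher in replicate 2 a median of 4063 nt (2231 to 5224 nt). Over 7416 genes with at least 20 reads, the log2 ratio rose with length (Spearman's rho 0.658 across genes, which are not independent replicates). With a lowess curve of that trend removed, replicate 2 was higher for 7 of the cholesterol genes and replicate 1 for 5, and 16 had no call. The background was then 42.4% of 9173 genes, with 21.3% higher in replicate 2 and 21.1% higher in replicate 1. The median log2 ratio was 0.50 for the cholesterol genes and 0.06 for all genes. Of the 18 calls, 8 were kept in the same direction, 10 were lost and 4 others were gained, so length-adjusted values are given beside the ratios.

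**Figure D3:**
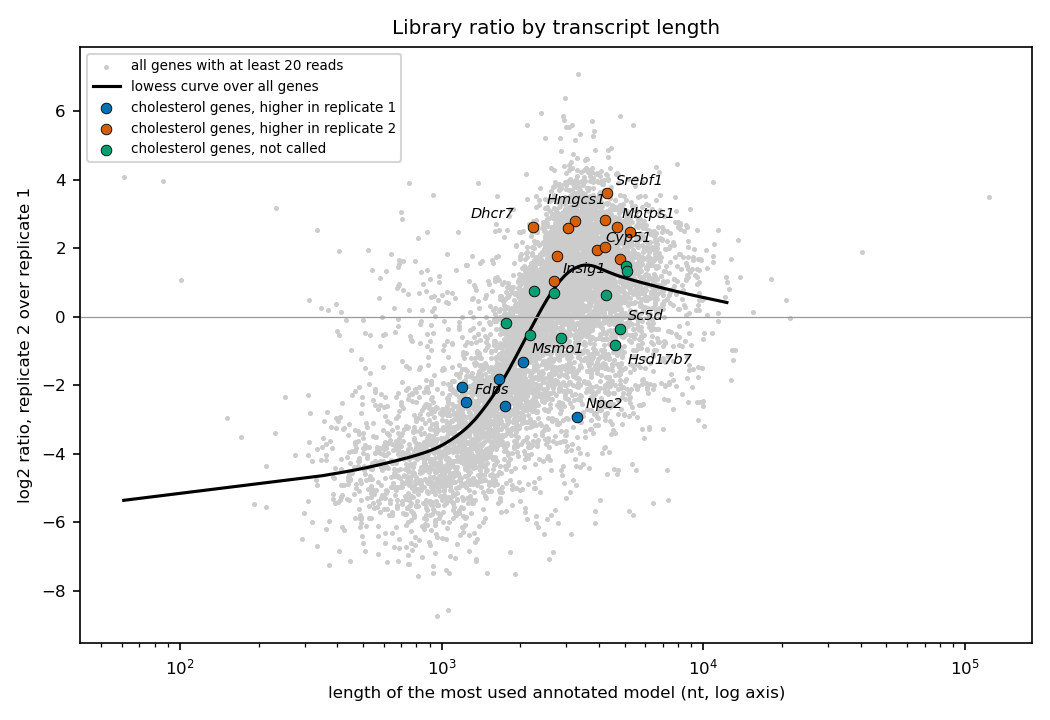
Log2 ratio of replicate 2 over replicate 1 (y axis) against annotated model length (x axis, nt, log scale; the most used such model of the gene) for 7416 genes (grey), with the lowess curve over them (black line) and the 28 tested cholesterol genes in colour by call. Srebf1, Dhcr7, Mbtps1 and Hmgcs1 lie above the curve and Npc2, Sc5d and Hsd17b7 below it. Dhcr7 is placed at 2231 nt, the length of an annotated model that few of its reads used.

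The mevalonate steps were carried by Hmgcs1, the cytosolic HMG-CoA synthase (chromosome 13, 119690379 to 119708260 on mm10). It had 77 reads (95.0 CPM) in replicate 1 and 543 reads (924 CPM) in replicate 2. That is a 7.01-fold difference on TMM-scaled sizes (95% interval 5.51 to 9.02; log2 ratio 2.80; binomial test, adjusted p = 2.57e-85). The length-adjusted log2 ratio was 1.37 and still called (adjusted p = 2.42e-17). Acat2, the cytosolic acetoacetyl-CoA thiolase, had 24 and 41 reads and was not called (adjusted p = 0.0678), but was called as higher in replicate 2 with length removed (log2 ratio 0.93, adjusted p = 0.0313) and with total reads as library sizes (1.18, adjusted p = 0.00197). The kinases Mvk and Pmvk, which phosphorylate mevalonate in turn, had 26 and 7 reads and 18 and 4 reads. Both were higher in replicate 1, and neither was called with length removed, where the log2 ratios were 0.20 and 1.32. Mvd, the decarboxylase that ends the branch, had 8 and 7 reads. Hmgcs1 had the highest level of the 5 enzymes of this branch in both libraries.

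Among the isoprenoid steps, Fdps, the farnesyl diphosphate synthase (1237 nt), had 143 reads (176 CPM) in replicate 1 and 25 reads (42.5 CPM) in replicate 2. It was 5.75-fold higher in replicate 1 (3.74 to 9.19; adjusted p = 9.72e-21). With the length curve, which predicted a log2 ratio of -3.27 at that length, the ratio became 0.77 (adjusted p = 0.0550) and turned in direction. Idi1, the isopentenyl diphosphate isomerase, had 11 and 69 reads and was higher in replicate 2 with and without length (log2 ratios 2.59 and 1.31). Ggps1, which makes the C20 diphosphate for protein prenylation, had 31 and 49 reads and was not called. Its log2 ratio was 0.64, or -0.69 with length removed. With total reads as library sizes it was called as higher in replicate 2 (1.07, binomial test, adjusted p = 0.00184). With the length of the most used model of any class it was called as higher in replicate 1 (-0.82, adjusted p = 0.0409).

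The sterol ring steps split by gene. Dhcr7, the 7-dehydrocholesterol reductase (chromosome 7, 143823145 to 143848410), had 101 reads (125 CPM) in replicate 1 and 632 reads (1075 CPM) in replicate 2. It was 6.22-fold higher in replicate 2 (5.04 to 7.75; adjusted p = 1.05e-92). Its length-adjusted log2 ratio of 2.86 was the highest among the cholesterol genes (adjusted p = 1.08e-111). That value used 2231 nt, the length of the unspliced retained-intron transcript Dhcr7-212, while annotated models held only 1 and 4 of the Dhcr7 reads. With the length of the most used model of any class the Dhcr7 ratio was 2.50, below the 3.27 of Mbtps2, which had 18 reads. Msmo1, the sterol C4-methyl oxidase, went the other way, with 210 reads (259 CPM) in replicate 1 and 85 reads (145 CPM) in replicate 2. It was 2.48-fold higher in replicate 1 (1.92 to 3.24; adjusted p = 7.08e-13) and remained so with length removed (log2 ratio -0.53, adjusted p = 0.0109). Cyp51, the lanosterol 14-demethylase, had 37 reads (45.7 CPM) and 144 reads (245 CPM), a 3.87-fold difference (2.68 to 5.71; adjusted p = 2.47e-15). It was not called once length was removed (log2 ratio 0.49, adjusted p = 0.127).

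The other ring enzymes had between 2 and 63 reads in a library. Lss, which closes the ring, and Sqle, the squalene epoxidase, were higher in replicate 2, with log2 ratios of 2.62 and 1.77, and Lss alone kept that call with length removed (1.40, against 0.83 for Sqle). Ebp, the sterol isomerase, had 39 and 6 reads and was higher in replicate 1, but not with length removed (log2 ratio -0.85, adjusted p = 0.265). Fdft1 (squalene synthase), Hsd17b7 (a sterol 3-ketoreductase) and Sc5d (the C5-desaturase) were not called at first, and were called as higher in replicate 1 with length removed, at log2 ratios of -1.69, -2.05 and -1.53. The lengths used include last exons of 1816, 3600 and 4203 nt, while models ending in 563, 771 and 1670 nt also had reads. For Hsd17b7, 4 of 18 reads in replicate 1 were on a genomic model of 1 nt. The length-adjusted values of these genes are thus uncertain. Nsdhl, the C4-decarboxylase, had 13 and 9 reads and was not called either way. With length removed, Sc5d and Dhcr7, which act one after the other, were called in opposite directions.

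The sensors and factors held the widest ratio of the set. Srebf1 (chromosome 11, 60199089 to 60222581) had 25 reads (30.9 CPM) in replicate 1 and 314 reads (534 CPM) in replicate 2. It was 12.5-fold higher in replicate 2 (8.30 to 19.6; log2 ratio 3.62; adjusted p = 3.00e-63), with a length-adjusted log2 ratio of 2.30 (adjusted p = 9.35e-21). Srebf2, whose product is the main SREBP of cholesterol genes, had 5 reads (6.17 CPM) and 15 reads (25.5 CPM) and was not called (log2 ratio 1.49, adjusted p = 0.0609; 0.36 with length removed). It was called as higher in replicate 2 with multi-exon models only (1.76, adjusted p = 0.0391) and with total reads as library sizes (1.91, adjusted p = 0.00885). Srebf1 reads outnumbered those of Srebf2 in both libraries. Of the 5 Srebf2 reads in replicate 1, 2 were on the 4-exon Srebf2-205 and 2 on a genomic model. The last exon of Srebf2-201 closed 0 of 3 spliced reads in replicate 1 and 11 of 14 in replicate 2.

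Scap, the escort of the SREBPs, had 26 reads (32.1 CPM) and 109 reads (185 CPM). It was 4.17-fold higher in replicate 2 (2.70 to 6.66; adjusted p = 1.36e-12), but not called with length removed (log2 ratio 0.70, adjusted p = 0.0504). Insig1, the anchor whose gene is itself an SREBP target, had 60 reads (74.1 CPM) and 125 reads (213 CPM). It was 2.07-fold higher in replicate 2 (1.51 to 2.87; adjusted p = 5.47e-06), and not called with length removed (log2 ratio 0.21, adjusted p = 0.506). Insig2, the second anchor, had 20 reads (24.7 CPM) and 33 reads (56.1 CPM) and was not called, with a log2 ratio of 0.70 (adjusted p = 0.134) or of -0.14 with length removed. It was called with total reads as library sizes (1.13, adjusted p = 0.00858). Insig1 and Insig2 have the same model length of 2697 nt, so their ratios are on the same point of the length curve.

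Of the proteases, Mbtps1, which encodes the site-1 protease, had 24 reads (29.6 CPM) and 173 reads (294 CPM). It was 7.17-fold higher in replicate 2 (4.66 to 11.5; adjusted p = 5.61e-28) and remained called with length removed (log2 ratio 1.46, adjusted p = 7.59e-07). Mbtps2, the site-2 protease, had 4 and 14 reads, with an adjusted p of 0.0468 by the binomial test and 0.744 with length removed. Among the carriers, Npc2, the soluble lysosomal cholesterol-binding protein, had 290 reads (358 CPM) in replicate 1 and 38 reads (64.6 CPM) in replicate 2. It was 7.68-fold higher in replicate 1 (5.46 to 11.1; adjusted p = 2.25e-48). Its length-adjusted log2 ratio of -4.38 rests on an annotated length of 3299 nt that includes a last exon of 2651 nt, while models with the shorter annotated end of 721 nt also had reads. The table does not give read lengths, so that value is uncertain. Npc1, the membrane partner of Npc2, had 3 and 19 reads, and Stard4, a cytosolic sterol carrier, 6 and 16. All 6 reads of Stard4 in replicate 1 were on genomic models, 5 of them on a model of 1 nt, so they show no spliced Stard4 transcript.

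The genes around the pathway were read the same way, on lists chosen with earlier results of these data known. Replicate 2 was higher for 10 of 12 acyl lipid genes known as Srebf1 targets and replicate 1 for 0, and the median log2 ratio was 1.66. With length removed the counts were 7 and 1, and the median 0.93. The widest of them were Fads2, a fatty acid desaturase, with 804 and 4455 reads (log2 ratio 2.46), Me1, the malic enzyme, with 304 and 1661 reads (2.44), and Acss2, an acetyl-CoA synthetase, with 30 and 152 reads (2.31). With length removed their log2 ratios were 1.09, 0.99 and 1.14, each still called. The 7 calls with length removed also included Acaca and Fasn, at log2 ratios of 4.42 and 4.81. Acaca was not called without length removal (adjusted p = 0.887 by the binomial test). These values used annotated model lengths of only 431 nt for Acaca and 976 nt for Fasn. Whether the reads had those lengths was not tested, so both calls are uncertain. For sterol degradation and ubiquitin control, replicate 2 was higher in 6 and replicate 1 in 2 of 9 tested genes, led by Erlin1 (4 and 36 reads, log2 ratio 3.01), Aup1 (85 and 11 reads, -2.90) and Rnf145 (31 and 217 reads, 2.78). With length removed, 2 were called in each direction, and the log2 ratios of these genes were 1.65, -1.23 and 1.27, each still called. The non-sterol branches use isoprenoids for prenylation, dolichol and ubiquinone, and 11 of their genes were tested: 1 was higher in replicate 2 and 3 were higher in replicate 1. The gene higher in replicate 2 was Zmpste24, the protease of prenylated lamin A, with 13 and 140 reads (3.37, or 1.87 with length removed). Toward replicate 1 the widest were Coq2 (107 and 20 reads, -2.40) and Fnta (137 and 35 reads, -1.96). With length removed Coq2 was not called (-0.64, adjusted p = 0.116 by the binomial test) and Fnta still was (-0.82, adjusted p = 0.00543). With length removed the balance turned, with 3 higher in replicate 2 and 2 in replicate 1. Rabggtb, a subunit of the Rab prenyltransferase, then turned from -1.67 to 1.21 (adjusted p = 0.0151), and its partner Rabggta was called at 1.97. For sterol movement the 9 tested genes gave 5 calls toward replicate 2 and 2 toward replicate 1, the latter being the contact-site anchor Vapa (446 and 82 reads, -2.44) and the carrier Scp2 (341 and 72 reads, -2.24). With length removed the calls were 2 toward replicate 2 and 3 toward replicate 1. Vapa then stood at -3.92, and Scp2, with an annotated model of 772 nt, turned to 1.84 (adjusted p = 2.48e-16). Of 5 oxysterol receptor and efflux genes, 1 was higher in each direction, and 0 of 4 were called with length removed. The counts without length removal are to be read against the 30.6% and 35.6% of all genes called in each direction, and the others against 21.3% and 21.1%. The summed reads of adipocyte and macrophage markers, given above, were lower in replicate 2 while the acyl lipid genes were higher; their part in these ratios was not tested.

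Long reads also showed which transcript models the genes used. A model is annotated when its splice junctions match a GENCODE transcript, an incomplete match when it holds only part of one, and otherwise an unannotated combination of known sites, a model with an unannotated site, or genomic. Annotated models took 75.4% (95% interval 73.0 to 77.7) of cholesterol gene reads in replicate 1 and 55.2% (53.3 to 57.1) in replicate 2, a mean of 65.3 ± 14.3% (SD, n = 2). For all annotated genes the shares were 78.7% and 74.1%, a mean of 76.4 ± 3.26%. Without Dhcr7 the shares of the cholesterol genes were 81.6% and 72.2%, with a mean of 76.9%. Incomplete matches took 15.1% and 27.8% of the reads with Dhcr7, and 8.54% and 7.78% without it. For all annotated genes they took 10.5% and 10.8%. Unannotated combinations took 3.11% and 10.9%, beside 3.05% and 6.72% for all annotated genes. Srebf1 alone held 6 of the 41 such reads of the cholesterol genes in replicate 1 and 171 of the 290 in replicate 2.

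**Figure D4:**
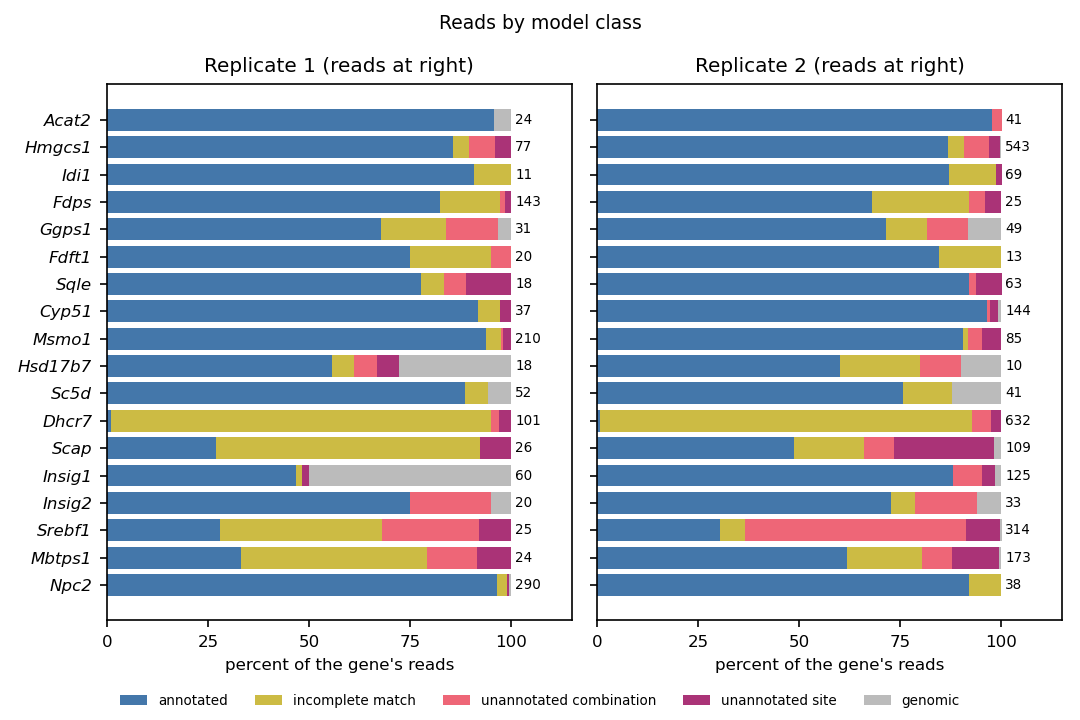
Share of the reads of a gene (x axis, percent) by model class in replicate 1 (left) and replicate 2 (right), for the 18 genes that reached 10 reads in both libraries; numbers at the right of the bars are reads. Dhcr7 is almost all incomplete match, Srebf1 in replicate 2 is mostly unannotated combination, and Insig1 has a genomic block in replicate 1.

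The share of the most used model was compared between libraries by Fisher's exact test for the 18 cholesterol genes that reached 10 reads in both. It differed in 4 of them, Dhcr7, Fdps, Insig1 and Srebf1, at an adjusted p under 0.05. Over all 4733 genes so tested, 28.6% were called, so 4 of 18 is not above that background. With annotated models only it differed in 0 of 9 cholesterol genes. Over junctions, reads of the cholesterol genes used 332 annotated introns, 274 of them in both libraries, and 166 unannotated introns, of which 13 were in both libraries and 22 had at least 3 reads. An intron with 1 read can only be in 1 library.

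Srebf1 was the gene of at least 100 reads with the highest share on unannotated combinations or unannotated sites, 60.8% of 339 reads. Incomplete matches are not in that share. Its alternative starts give the SREBP-1a and SREBP-1c proteins, of which 1a has the longer activation domain. The exon of Srebf1-201, which begins the 1a form, opened 8 reads in replicate 1 and 116 in replicate 2. The exon of Srebf1-207, which begins the 1c form and ends 10117 nt further downstream, opened 6 and 170 reads. The 1c start thus took 42.9% (17.7 to 71.1) of the reads with either start in replicate 1 and 59.4% (53.5 to 65.2) in replicate 2, a mean of 51.1 ± 11.7% (SD, n = 2). No difference in that share was detectable at this depth (Fisher's exact test, two-sided, p = 0.270), with 14 such reads in replicate 1. Both starts were higher in replicate 2, at 9.87 and 197 CPM for 1a and 7.41 and 289 CPM for 1c.

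The forms are shown by the coding bases of their first exons, from the start codon (capitals) to the end of the exon, and by the bases at the end of exon 4 that some models left out. They are from GENCODE M21 transcripts on GRCm38, on the strand of the gene.
Srebf1-201 first exon, chr11:60220453-60220543 (-): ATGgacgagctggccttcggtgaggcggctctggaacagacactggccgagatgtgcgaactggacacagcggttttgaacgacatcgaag
Srebf1-207 first exon, chr11:60210336-60210354 (-): ATGgattgcacatttgaag
Srebf1 longer end of exon 4, chr11:60206173-60206187 (-): gcaggtcccctgcag
The 1a exon carries 91 coding bases and the 1c exon 19, so the reads separate forms whose coding sequence differs only at this end. The most used Srebf1 model of replicate 2, with 2 reads in replicate 1 and 135 in replicate 2, joined the 1c exon to the remaining 18 exons of Srebf1-201. It counts as unannotated because Srebf1-207 as annotated stops short of the last exon of Srebf1-201. Srebf1-201 itself had 7 and 94 reads. No read was on the annotated chain of Srebf1-207, so with annotated models only the 1c share would be 0%. The exon 4 end that is 15 nt shorter, as in Srebf1-203, was used by 2 of 14 junction reads in replicate 1 (14.3%) and by 29 of 297 in replicate 2 (9.76%). Neither start held the letters TCACNCCAC in its window. The window of the 1c start held 1 CCAAT box, and that of the 1a start none.

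**Figure D5:**
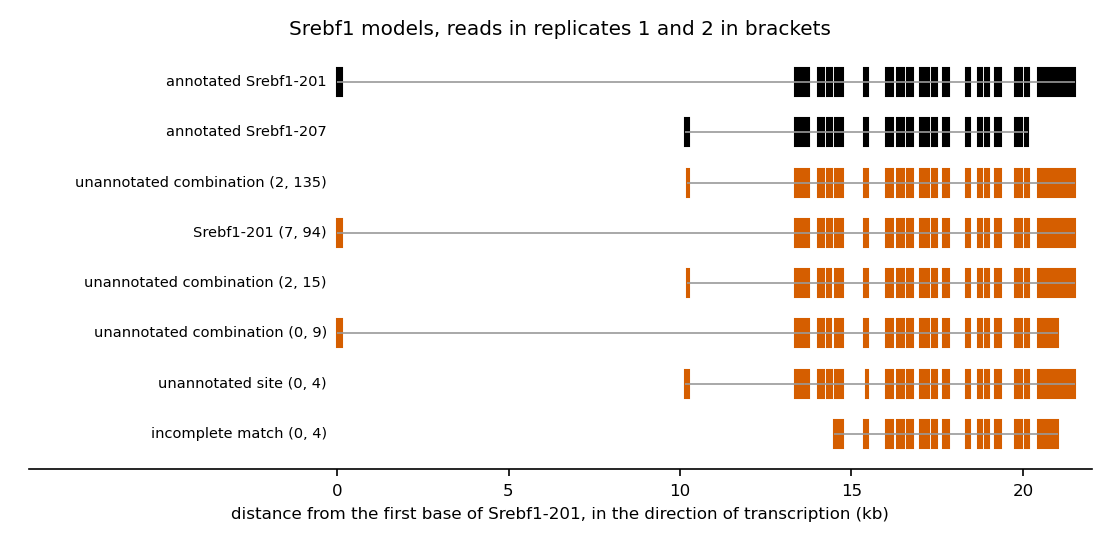
Exons (boxes) of Srebf1-201 and Srebf1-207 as annotated (black) and of the 6 most read spliced models (orange), by distance from the first base of Srebf1-201 (x axis, kb), with the reads in replicates 1 and 2 in brackets. The model with 2 and 135 reads starts in the exon of Srebf1-207 and runs to the last exon of Srebf1-201.

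Most spliced Dhcr7 reads began downstream of the first exon of Dhcr7-201. Incomplete matches held 95 of its 101 reads in replicate 1 and 582 of its 632 in replicate 2. The most used model, with 56 and 487 reads, had 8 exons and began at base 143830234, in the exon that is exon 2 of Dhcr7-201 and where the annotated Dhcr7-209 begins. By end exons, 67 of 101 reads in replicate 1 and 603 of 632 in replicate 2 ran from an annotated first exon to an annotated last exon. These counts include 4 and 81 reads whose first exon is first only in Dhcr7-213, and 3 and 1 for Dhcr7-205 and Dhcr7-210. Those exons lie inside the longer coding transcripts, so such reads may be cut short. The share of spliced Dhcr7 reads that began in the exon of base 143830234 was 76.6% (65.6 to 85.5) in replicate 1 and 82.2% (78.9 to 85.1) in replicate 2. The junction from the upstream exon of Dhcr7-201, whose end lies 6694 nt before that base, was in 1 read in each library. That base lies 20 nt after the third RefSeq start of Dhcr7, whose window, printed in part above, holds 2 CCAAT boxes and 3 GGGCGG boxes. The window of the upstream start of Dhcr7-201 held no CCAAT box and 1 GGGCGG box. A start at that promoter and reads cut short of the upstream exon cannot be told apart from model ends alone. The model share differed between libraries (55.4% and 77.1%, adjusted p = 1.50e-04), and replicate 1 had 24 unspliced reads among its 101, replicate 2 4 among 632.

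Hmgcs1 showed the same split of models in both libraries. Hmgcs1-201, with 10 exons, took 54.5% (42.8 to 65.9) of 77 reads and 52.7% (48.4 to 56.9) of 543 reads. Hmgcs1-202 differs by a noncoding exon of 59 nt after the first exon. Junctions of that extra exon, or of its 158 nt form, were in 31 of 74 reads in replicate 1 (41.9%, 30.5 to 53.9) and in 225 of 522 in replicate 2 (43.1%, 38.8 to 47.5). Hmgcs1 was thus among the widest ratios in level while its exon choice differed by less than counting error.

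Insig1 differed through unspliced reads. Insig1-201, the 5-exon coding transcript, took 45.0% (32.1 to 58.4) of 60 reads in replicate 1 and 86.4% (79.1 to 91.9) of 125 reads in replicate 2 (adjusted p = 2.05e-07). In replicate 1, 29 reads were on a single unspliced model of 1222 nt inside the last exon. With multi-exon models only, the log2 ratio of Insig1 was 1.73, against 1.04 over all models. In replicate 2, 8 reads kept the third intron of 413 nt.

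The other genes with unannotated structures had fewer reads. In Scap, 2 and 19 reads began in an unannotated exon that ends at base 110376039, inside an intron, and joined the downstream exons over an unannotated intron of 523 nt; Scap-201 had 7 and 53. In Mbtps1, 3 and 8 reads began in the exon of Mbtps1-209 and went on to the end of Mbtps1-201, which itself had 8 and 105. In Mvk, the junction that adds 36 nt to an exon, as in Mvk-202, was in 5 of 26 and 2 of 6 reads. Fdps-203, which has an extra exon near the start, or its junctions, took 25 of 127 reads (19.7%, 13.2 to 27.7) and 4 of 15 (26.7%, 7.79 to 55.1). The Fdps model share that differed between libraries (67.8% and 40.0% for Fdps-201, adjusted p = 0.0437) rested on 25 reads in replicate 2, of which 4 were on an unspliced annotated model.

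By end exons, most reads of most enzymes were on models with an annotated first and an annotated last exon. These are ends of models, not of reads. The counts therefore do not show that molecules were read from end to end. The first exon of any annotated transcript counted here, also where it lies inside a longer one. Reads whose model ran from an annotated first exon to an annotated last exon were 203 of 210 and 83 of 85 for Msmo1, 35 of 37 and 143 of 144 for Cyp51, 73 of 77 and 513 of 543 for Hmgcs1, and 281 of 290 and 35 of 38 for Npc2. For Scap they were 8 of 26 and 66 of 109, and for Mbtps1 17 of 24 and 135 of 173. Of the 29 genes 15 overlap another annotated gene, and 7 of them one with at least 10 reads. Fdft1 overlaps Ctsb on the opposite strand, which had 2915 and 902 reads. Tm7sf2 overlaps Vps51 on the same strand, so that its 2 and 6 reads are uncertain.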

How the data were processed

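Long-read RNA-seq of 2 libraries of 1 group was read from tables of transcript models. They hold unnormalized counts of reads for each model, per the file headers, and were made by the authors with TALON on mm10 with GENCODE M21. The model annotations give exon coordinates on mm10. For the aligner and the sequencing platform, the entry is: not given in the sources used here. No column of per-sample values was left unused.

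Counts were summed per gene, and CPM was computed over all reads of a library. TMM-scaled sizes came from edgeR 4.0.16 in R 4.3.3. Exact binomial and Fisher tests came from scipy 1.17.1, with Benjamini-Hochberg adjustment over all genes at 0.05, and the lowess curve (span 0.3) from statsmodels 0.14.6. With 1 library on each side edgeR's quasi-likelihood test has no residual degrees of freedom. Log2 ratios used a pseudocount of 0.5 reads. Intervals are 95% Clopper-Pearson intervals and cover counting error only, as the reads were not shown to be independent molecules. The binomial test and the lowess curve were tested on simulated data. Beyond the folds set in some genes, the simulated counts varied by counting error only, as the binomial test assumes. They therefore cannot show how that test fares between libraries that vary. Spliced models were matched between libraries by their junctions. The numbers were computed on all genes and only the rows of the 29 genes are given.

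The members, lists, tests and alternatives were chosen with earlier results of these data known. Full values are given for genes with at least 100 reads over both libraries and for Srebf1, Srebf2, Scap, Insig1 and Insig2. Of each related list, at most 3 called genes with the widest ratio are named. Fasn, Acaca, Rabggtb and Rabggta are named beside them for their change with length removed. All 29 genes were found by symbol, and 24 in the RefSeq promoter table of GRCm38.p6, which shares its chromosome coordinates with mm10.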

Additional observations from a re-analysis of the deposited data

Results flagged for a closer look

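Reads of antisense models over the 29 genes, which no comparison used, came to 44 in replicate 1 and 15 in replicate 2, above the 3 reads that a count of 0 allows. They lay over 10 genes in each library, and 0 and 1 of them were spliced. Of the 44, 29 were on 1 antisense model over Insig1, from 28078272 to 28078662 on chromosome 5. It meets the unspliced sense model of Insig1, from 28077051 to 28078272 with 29 reads, at the same base. The relation of these models was not tested.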

How the results depend on the processing

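Removing the length trend moved the count of cholesterol genes higher in replicate 2 from 12 to 7. Among the genes called before, it turned the log2 ratios of Mvk (0.20), Pmvk (1.32) and Fdps (0.77). With the length of the most used model of any class these were 0.10, 1.10 and 0.56. Of the genes not called before, Mvd (1.53), Ggps1 (-0.69) and Insig2 (-0.14) also changed sign. With at least 50 reads the count higher in replicate 1 was 3 of 17 genes tested, as fewer genes were tested. Under edgeR's exact test with the common dispersion of the libraries (biological coefficient of variation 95.2%), 0 genes were called in either direction, with 0 cholesterol genes and 252 of all 9809 at an unadjusted p under 0.05. As said above, that dispersion contains the difference under test, so these counts cannot decide whether any gene differed. Scaling by total reads moved the median log2 ratio of all genes from -0.01 to 0.42, the share of calls that were higher in replicate 2 from 46.2% to 55.9%, and the cholesterol genes to 17 higher in replicate 2 and 6 in replicate 1. With annotated models only, 0 of 9 cholesterol genes had a differing most used model, beside 186 of 1950 genes, and the 1c share of Srebf1 was 0%. A single library gave a summed level of 1628 to 4528 CPM, an annotated share of 55.2% to 75.4% and a 1c share of 42.9% to 59.4%. The use of any-class lengths, the annotated share without Dhcr7 and the single-library 1c shares were chosen after seeing the data. With total reads as library sizes Acat2, Ggps1, Insig2, Srebf2 and Stard4 were also called as higher in replicate 2. With multi-exon models only Srebf2 and Stard4 gained that call, Sc5d was called as higher in replicate 1 (-0.73) and Mbtps2 lost its call (0.93). A pseudocount of 5 reads changed no direction of the 28 log2 ratios. It could not change a call, because the binomial test uses the counts without a pseudocount. No paired analysis was possible because there is only 1 group. Depth limits the genes under 100 reads most: a count of 0 allows up to 3 reads.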
